A study of Emiliania huxleyi CCMP1516 with 36 samples.

Results

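The genes 6PGL, 6PGL2 and RPE2 of the marine alga Emiliania huxleyi carry the names of enzymes of the pentose phosphate pathway, and they were followed through an exposure to a bacterial quinolone. They were chosen by name, as the rows with these 3 symbols, with earlier results of these data known. They make up 3 of the 37212 genes in the table. All 3 were among the 26494 genes that passed the filter on low counts. Axenic cultures of strain CCMP2090 received 2-heptyl-4-quinolone (HHQ), a signalling molecule of some bacteria, at 1, 10 or 100 ng/ml in dimethyl sulfoxide (DMSO). Vehicle cultures received DMSO alone, and its final concentration was 0.002% in vehicle and HHQ cultures. RNA was taken after 24 and 72 h, and from the untreated parent cultures used as inoculum (0 h), giving 9 groups of 4 biological replicate cultures. The organism field of the labels names another strain, CCMP1516, and the effect of sequence differences between the strains on the counts was not tested.

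The pentose phosphate pathway oxidizes glucose 6-phosphate and rearranges sugar phosphates. In its oxidative branch glucose-6-phosphate dehydrogenase (G6PDH) makes NADPH and a lactone, 6-phosphogluconolactonase (6PGL) opens that lactone, and a further oxidation gives NADPH again together with ribulose 5-phosphate. Ribulose-phosphate 3-epimerase (RPE) interconverts ribulose 5-phosphate and xylulose 5-phosphate, a step that also belongs to the Calvin cycle of photosynthetic cells. These roles are those usually attached to the symbols and were not examined in this alga.

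Library totals ran from 5679128 to 42602884 estimated counts. Levels are given as CPM, the counts of a gene relative to all counts of its library, after TMM scaling (trimmed mean of M values), and ± is the SD of a mean over 4 libraries or the standard error (SE) of a log2 fold change. Genes are described as called where edgeR's quasi-likelihood F test gave an adjusted p under 0.05 (Benjamini-Hochberg over all 26494 genes). Replicates fell into sets. In vehicle, 10 and 100 ng/ml cultures at 24 h replicates 1 to 3 correlated with each other more closely (r of log2 CPM across genes 0.955 to 0.974) than with replicate 4 of their group (0.934 to 0.961), and at 72 h the same groups divided into replicates 1 and 2 and replicates 3 and 4 (0.955 to 0.964 inside the sets, 0.901 to 0.953 across them). In the groups with 1 ng/ml the correlations inside and across the same sets overlapped. Inside and across, they were 0.930 to 0.961 and 0.914 to 0.947 at 24 h, and 0.922 to 0.955 and 0.902 to 0.933 at 72 h. In RNA from whole cultures, fewer transcripts per cell and fewer cells making them cannot be told apart.

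The reads behind these genes were shared with other genes. The estimated count of 6PGL was not a whole number in any of 36 libraries, but added to that of EMIHUDRAFT_443114, a gene without a symbol, it came to a whole number within 0.0025 in 36 of 36. The next best gene did so in 4 libraries. The count of RPE2 became whole in the same way with EMIHUDRAFT_438492 in 36 of 36 libraries, against 3 for the next best gene. The count of 6PGL2 was not whole in 2 libraries, and its sum with EMIHUDRAFT_440404 was whole in both, against 1 for the next best gene, so this partner is less certain than the other two. Salmon divides reads that match several transcripts by estimation, so the value of either gene of such a pair alone is uncertain, and the pair sums were tested as well. This alternative was chosen after the data were seen.

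The division of a pair was steadier for 6PGL than for RPE2. The share of 6PGL in its pair ran from 36.9% to 51.5% over the 36 libraries. The share of RPE2 ran from 7.85% to 39.6%, with the lowest value in replicate 4 of the vehicle cultures at 72 h and the highest in replicate 1 of the parent cultures. On average 6PGL held 43.4% of its pair and RPE2 20.8%. The pair sums of RPE2 thus mainly describe EMIHUDRAFT_438492, and how alike the genes of a pair are was not examined. Inside most groups RPE2 ranged more widely than its pair sum, though not in those with 1 and 10 ng/ml at 24 h. In vehicle cultures at 72 h the highest library of RPE2 was 4.78-fold above the lowest, whereas the pair sum differed 1.43-fold. In vehicle cultures at 24 h the corresponding values were 2.14-fold and 1.12-fold. No difference of the share between HHQ and vehicle was found in 12 comparisons over both genes (exact two-sided permutation tests, 4 against 4 libraries, raw p from 0.257 to 1.0, all adjusted p = 1.0, where 4 against 4 cannot go below 0.0286).

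**Figure D1:**
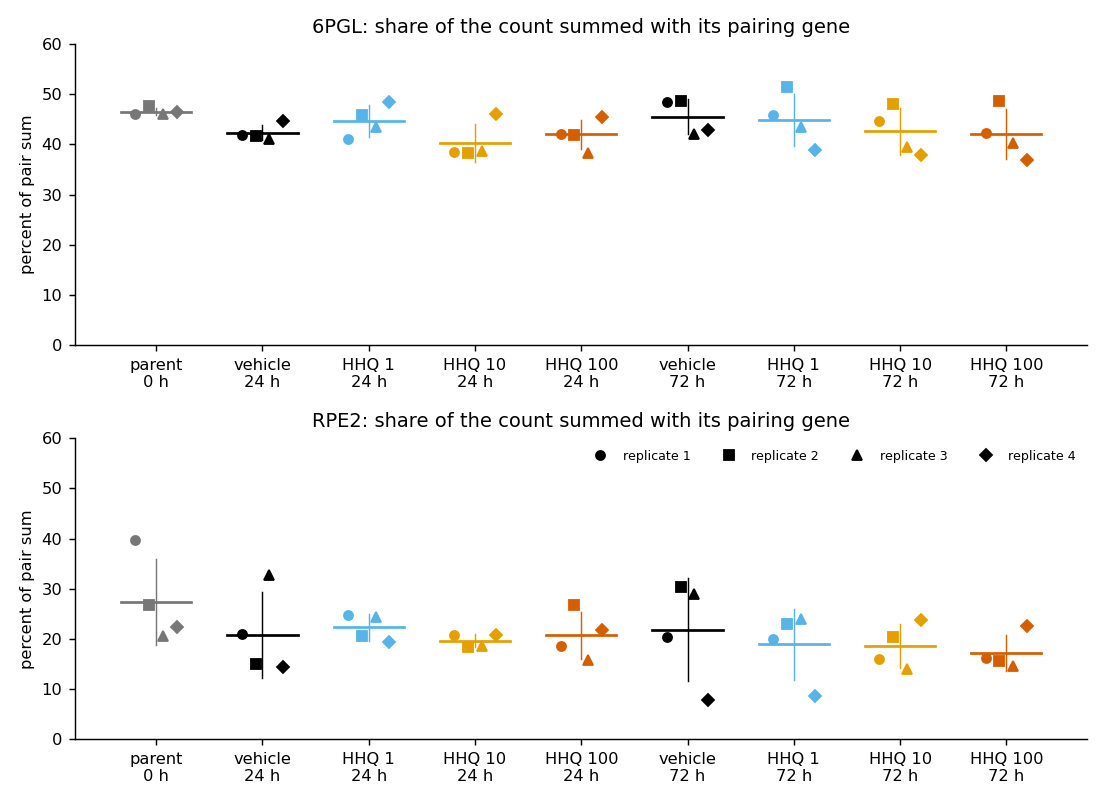
The percent of the pair sum of estimated counts that was assigned to 6PGL (with EMIHUDRAFT_443114) and to RPE2 (with EMIHUDRAFT_438492) is plotted for each of the 36 libraries by group. The points of 6PGL lie between 36.9% and 51.5% and those of RPE2 between 7.85% and 39.6%.

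6PGL was highest in the 24 h cultures with no or little HHQ and lowest with 100 ng/ml. Its level was 33.4, 34.96, 35.4 and 31.02 CPM in the parent cultures. At 24 h it was 47.4, 43.1, 48.2 and 48.6 CPM with vehicle and 44.5, 62.8, 54.5 and 57.6 CPM with 1 ng/ml. At the higher doses it was 23.4, 26.6, 25.9 and 27.8 CPM with 10 ng/ml and 20.2, 21.2, 20.7 and 11.8 CPM with 100 ng/ml. Every library of both higher doses at 24 h lay below every vehicle and parent library, and replicate 4 stood well below the others of its group at 100 ng/ml.

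At 72 h 6PGL was at 35.7, 41.0, 26.9 and 31.9 CPM with vehicle and at 31.2, 47.6, 31.2 and 31.9 CPM with 1 ng/ml. It was at 36.03, 39.3, 24.6 and 24.9 CPM with 10 ng/ml and at 11.4, 12.5, 15.6 and 15.4 CPM with 100 ng/ml. The first 3 of these groups overlapped, and the highest dose lay below all of them. In vehicle and 10 ng/ml cultures replicates 1 and 2 were higher than replicates 3 and 4. By mean level the order of the 9 groups was 1 ng/ml before vehicle at 24 h, then the same at 72 h, parent, 10 ng/ml at 72 h, 10 ng/ml at 24 h, and last the highest dose at both times. Neighbours in this order overlapped except that both groups with 100 ng/ml lay below the rest.

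RPE2 was likewise highest at 24 h with no or little HHQ and lowest with 100 ng/ml. Its parent cultures, however, stood below both groups with 10 ng/ml in the order of means. Relative to the mean its spread was wider than that of 6PGL, except with 1 and 10 ng/ml at 24 h. It was at 210, 142, 124 and 125 CPM in the parent cultures, and at 394, 298, 575 and 269 CPM in vehicle at 24 h. At the same time it was at 450, 494, 492 and 442 CPM with 1 ng/ml, at 211, 196, 188 and 183 CPM with 10 ng/ml and at 138, 205, 107 and 86.5 CPM with 100 ng/ml. The 24 h vehicle libraries were all above the parent libraries and above those of the 2 higher doses, which overlapped each other.

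At 72 h the RPE2 level was 213, 442, 295 and 92.5 CPM with vehicle, 193, 379, 274 and 116 CPM with 1 ng/ml and 219, 302, 140 and 272 CPM with 10 ng/ml. With 100 ng/ml it was 55.01, 49.5, 69.01 and 117 CPM. The highest of these 4, replicate 4, lay above replicate 4 of the vehicle, so these 2 groups overlapped. All neighbouring groups in the order of mean RPE2 level overlapped. As pair sums the groups were better separated: vehicle at 72 h was at 1043, 1456, 1021 and 1178 CPM and 100 ng/ml at 338, 318, 469 and 518 CPM, with no overlap.

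**Figure D2:**
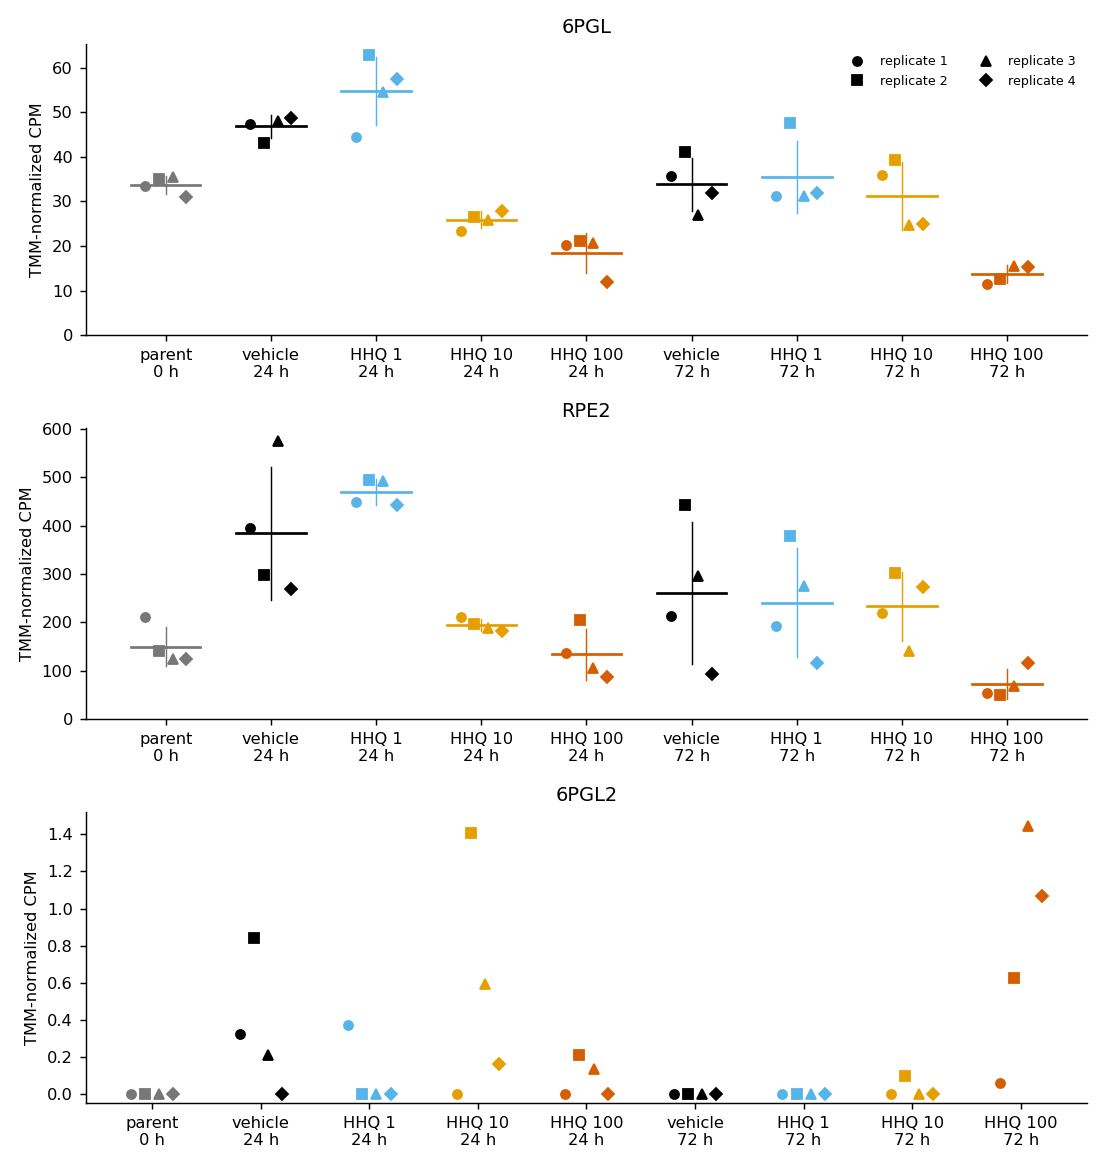
TMM-normalized CPM of 6PGL, RPE2 and 6PGL2 are plotted for each library by group, with the mean and SD of 4 libraries for 6PGL and RPE2. Both lie low in the 100 ng/ml groups, at 13.7 ± 2.08 and 72.6 ± 30.6 CPM after 72 h, and 6PGL2 is at 0 in 22 libraries.

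6PGL2 was nearly silent. Its estimated count was above 0 in 14 of 36 libraries and came to 197.543 counts in all. It was at 0 in every library of the parent, of the 72 h vehicle and of the 72 h cultures with 1 ng/ml. In vehicle at 24 h its counts were 9.094, 16, 8 and 0. With 10 ng/ml at 24 h they were 0, 21, 32 and 2. Its highest level was in cultures with 100 ng/ml at 72 h, with counts of 2.449, 10, 59 and 23 and a level of 0.0577 to 1.45 CPM, where 6PGL and RPE2 were lowest.

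After 24 h with 100 ng/ml HHQ, both 6PGL and RPE2 fell relative to vehicle. 6PGL was at 18.5 ± 4.45 against 46.8 ± 2.55 CPM, a log2 fold change of −1.34 ± 0.19 (2.54-fold lower, edgeR adjusted p = 1.51e-06). RPE2 was at 134 ± 51.9 against 384 ± 138 CPM, a log2 fold change of −1.52 ± 0.37 (2.86-fold lower, edgeR adjusted p = 0.00179). For neither gene did the 4 HHQ libraries overlap with the 4 vehicle libraries. 6PGL2, with counts of 0, 5, 3 and 0 at this dose, was not called (edgeR adjusted p = 0.216). In this comparison 41.1% of all genes were called, 21.6% higher and 19.5% lower (with library totals 11545 genes higher and 1803 lower). Within replicates 1 to 3 both calls held, at −1.16 for 6PGL (edgeR adjusted p = 0.000221) and −1.49 for RPE2 (edgeR adjusted p = 0.00186). As pair sums the falls were of like size, −1.31 ± 0.18 and −1.53 ± 0.21 (edgeR adjusted p = 1.38e-06 and 8.46e-07). The genes differed in where this left them beside the parent cultures. 6PGL was below its parent level of 33.7 ± 1.98 CPM, whereas RPE2 was near its own, 150 ± 40.9 CPM. The pair sum of RPE2 was at 645 ± 169 CPM, and at 992 ± 79.1 CPM with 10 ng/ml, against 555 ± 34.7 CPM in the parent. HHQ cultures were not tested against the parent.

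With 10 ng/ml at 24 h 6PGL fell as well, 1.81-fold, to 25.9 ± 1.85 CPM (log2 fold change −0.85 ± 0.19, edgeR adjusted p = 0.00173). In this comparison 11.8% of all genes were called, 7.39% higher and 4.37% lower (with library totals 1825 genes and 286). RPE2 was at 195 ± 12.3 CPM, 1.97-fold below vehicle, with no overlap between the groups, but was not called (log2 fold change −0.98 ± 0.37, edgeR adjusted p = 0.084). Its pair sum, at 1019, 1064, 1005 and 880 CPM against 1881, 1972, 1754 and 1869 CPM, was called (−0.91 ± 0.20, edgeR adjusted p = 0.00221). RPE2 alone was also called within replicates 1 to 3 (edgeR adjusted p = 0.0403) and by DESeq2 (adjusted p = 0.0382). With the replicate number as a block it was not (edgeR adjusted p = 0.0617). Replicate numbers were taken to pair these libraries from correlations in the data, and the labels do not say what they mark. 6PGL2 was not called (edgeR adjusted p = 0.812).

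With 1 ng/ml no member was called at either time. At 24 h the log2 fold change was 0.23 for 6PGL (95% interval −0.15 to 0.61, edgeR adjusted p = 0.56) and 0.29 for RPE2 (−0.46 to 1.04, edgeR adjusted p = 0.698). At 72 h it was 0.07 for 6PGL (−0.31 to 0.45) and −0.12 for RPE2 (−0.87 to 0.63), with an edgeR adjusted p of 1 for both. These intervals leave room for a change of 1.5-fold in 6PGL at 24 h and for larger changes in RPE2 at both times. The background share was 0.0% at both times: edgeR called 0 of all genes, with 2045 at an unadjusted p under 0.05 at 24 h and 494 at 72 h, and DESeq2 called 12 and 8.

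After 72 h with 100 ng/ml all 3 members were called, 6PGL and RPE2 lower and 6PGL2 higher. Without the libraries of this group, where it was highest, 6PGL2 would not have passed the filter on low counts. Its calls as higher here thus rest on values that the filter itself selected. 6PGL was at 13.7 ± 2.08 against 33.9 ± 5.99 CPM, 2.47-fold lower (log2 fold change −1.30 ± 0.19, edgeR adjusted p = 1.72e-06). RPE2 was at 72.6 ± 30.6 against 261 ± 147 CPM, 3.59-fold lower (−1.85 ± 0.38, edgeR adjusted p = 0.000218). 6PGL2 had 94.449 counts over the 4 HHQ libraries, 59 of them in replicate 3, against 0 over the vehicle libraries (edgeR adjusted p = 0.00649, and 0.0181 without that replicate). No fold is given for it, since EMIHUDRAFT_440404 had 2 counts in each of 3 vehicle libraries. As a pair sum 6PGL2 was at 0.820 ± 0.562 against 0.0894 ± 0.0624 CPM (log2 fold change 3.12 ± 0.96, edgeR adjusted p = 0.00909), and the lowest HHQ library, at 0.1442 CPM, lay just inside the vehicle range, which reached 0.1445 CPM. In this comparison 46.2% of all genes were called, 22.6% higher and 23.6% lower (with library totals 14505 genes and 1593).

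The sets of replicates at 72 h differed in how far RPE2 lay from vehicle. Within replicates 1 and 2 its log2 fold change was −2.55 (edgeR adjusted p = 0.000448), and within replicates 3 and 4 it was −0.99 and not called (edgeR adjusted p = 0.187). Its pair sum was called in both, at −1.83 and −1.10 (edgeR adjusted p = 0.000371 and 0.00583). 6PGL was called in both sets, at −1.58 and −0.86 (edgeR adjusted p = 0.000279 and 0.0112), whereas its pair sum within replicates 3 and 4 was not (−0.72, edgeR adjusted p = 0.0588). 6PGL2 was called within replicates 3 and 4 (edgeR adjusted p = 0.0308) and not within replicates 1 and 2 (edgeR adjusted p = 0.205).

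With 10 ng/ml at 72 h the members were close to vehicle. 6PGL was at 31.2 ± 7.59 CPM, with a log2 fold change of −0.12 (95% interval −0.50 to 0.26, edgeR adjusted p = 0.976). RPE2 was at 233 ± 71.1 CPM, with a log2 fold change of −0.16 (−0.91 to 0.59, edgeR adjusted p = 0.992). 6PGL2 had 2 counts in 1 library and 0 elsewhere in these groups, under the floor of 3 counts. In this comparison 0.947% of all genes were called, 0.672% higher and 0.276% lower (with library totals 123 genes and 12). The difference between the 72 h and the 24 h response to this dose was 0.74 ± 0.26 on the log2 scale for 6PGL (edgeR adjusted p = 0.226) and 0.82 ± 0.52 for RPE2 (edgeR adjusted p = 0.719), so a loss of the 24 h effect was not shown by edgeR, which called 1.44% of all genes, 0.204% higher and 1.23% lower. DESeq2 called it for 6PGL (0.80, adjusted p = 0.0396).

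**Figure D3:**
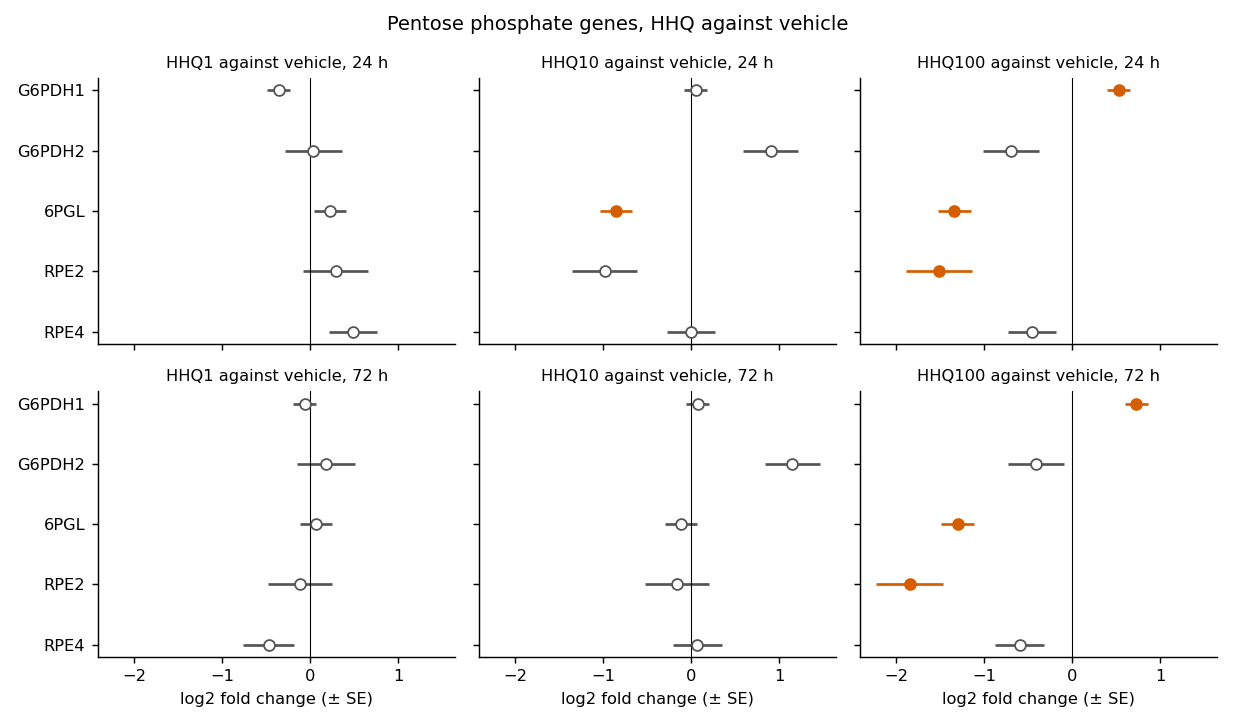
Log2 fold changes of HHQ (doses in ng/ml) against vehicle, ± SE, are plotted for 6PGL, RPE2 and 3 other pentose phosphate genes in 6 comparisons, filled where the adjusted p was under 0.05. With 100 ng/ml 6PGL and RPE2 lie below 0 at both times, at −1.34 and −1.52 and at −1.30 and −1.85, and G6PDH1 lies above 0.

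The response to 100 ng/ml did not differ measurably between the times for 6PGL and RPE2, and did for 6PGL2. The 72 h response minus the 24 h response was 0.04 ± 0.26 for 6PGL (95% interval −0.50 to 0.58, edgeR adjusted p = 0.975) and −0.33 ± 0.52 for RPE2 (−1.39 to 0.73, edgeR adjusted p = 0.835). For 6PGL2 the interaction was called with a higher response at 72 h (edgeR adjusted p = 0.0254), in a comparison that called 6.03% of all genes, 3.37% higher and 2.65% lower (882 genes and 219 with library totals, 1236 and 548 with the size factors of DESeq2). That call rested on few counts in a gene that needed the 72 h libraries at this dose to pass the filter. The call was lost without replicate 2 of the 24 h vehicle (edgeR adjusted p = 0.0518), the vehicle library with 16 counts.

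Between the 2 higher doses the members were further apart at 72 h than at 24 h, though this difference was not itself tested. At 72 h 6PGL was 2.27-fold lower with 100 than with 10 ng/ml (log2 fold change −1.19 ± 0.19, edgeR adjusted p = 1.2e-05) and RPE2 3.22-fold lower (−1.69 ± 0.38, edgeR adjusted p = 0.000791), with 39.5% of all genes called, 19.3% higher and 20.2% lower (with library totals 12865 genes and 1348). 6PGL2 was called higher (edgeR adjusted p = 0.026), again selected by the filter through the 100 ng/ml group, but not by DESeq2 (adjusted p = 0.0507). Nor was it called when HHQ replicate 1, 3 or 4 at 10 ng/ml or replicate 3 at 100 ng/ml was left out (edgeR adjusted p up to 0.0707). At 24 h, with 18.7% of all genes called (9.5% higher and 9.18% lower, or 5282 genes and 1157 with library totals), 6PGL differed by −0.49 ± 0.19 and was not called (edgeR adjusted p = 0.0607). It was called with the replicate block, if replicate numbers are taken to pair these libraries (edgeR adjusted p = 0.0258). RPE2 differed by −0.54 ± 0.37 (edgeR adjusted p = 0.312). As pair sums both were called, at −0.53 and −0.62 (edgeR adjusted p = 0.0363 and 0.0309).

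Levels were also compared between cultures without HHQ, where RPE2 was called and the other members were not. The step from parent to vehicle joins DMSO, inoculation into a new culture and 24 h of growth, which cannot be told apart. From the parent cultures to vehicle at 24 h RPE2 rose from 150 ± 40.9 to 384 ± 138 CPM, 2.56-fold (log2 fold change 1.35 ± 0.37, edgeR adjusted p = 0.00748), with 18.9% of all genes called, 9.81% higher and 9.12% lower (with library totals 1333 genes and 2420). Without replicate 3 of the vehicle, the library at 575 CPM, the change was 1.00 and not called (edgeR adjusted p = 0.0688). The pair sum of RPE2, most of it from EMIHUDRAFT_438492, rose 3.37-fold, from 555 ± 34.7 CPM (1.75 ± 0.21, edgeR adjusted p = 6.23e-08). 6PGL was at 33.7 ± 1.98 CPM in the parent and 46.8 ± 2.55 CPM in vehicle at 24 h. It was not called on its own (0.47 ± 0.18, edgeR adjusted p = 0.0734) but was as a pair sum (0.61 ± 0.18, edgeR adjusted p = 0.0129). 6PGL2 had 33.094 counts in the 24 h vehicle, 16 of them in replicate 2, and 0 in the parent, and was not called (edgeR adjusted p = 0.0574). Its pair sum was at 0.417 ± 0.347 and 0.161 ± 0.0811 CPM and was not called either (edgeR adjusted p = 0.394).

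From 24 to 72 h in vehicle the 2 expressed members were lower, without a call on their own counts. The log2 fold change was −0.47 ± 0.18 for 6PGL (edgeR adjusted p = 0.128) and −0.56 ± 0.37 for RPE2 (edgeR adjusted p = 0.395), in a comparison that called 7.11% of all genes, 3.92% higher and 3.19% lower (517 genes and 1486 with library totals, 845 and 1196 with the size factors of DESeq2). The pair sums were called lower, at −0.58 ± 0.18 and −0.67 ± 0.20 (edgeR adjusted p = 0.0444 and 0.0397). DESeq2 called 6PGL alone (adjusted p = 0.0211). 6PGL2 had 0 counts at 72 h and was not called (edgeR adjusted p = 0.101), nor was its pair sum, at 0.0894 ± 0.0624 CPM (edgeR adjusted p = 0.196).

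The ratio of 6PGL to RPE2 within a library was compared between HHQ and vehicle, and no test passed the threshold after adjustment. With 4 against 4 libraries a single result at the smallest exact p, 0.0286, could not pass after adjustment over 4, 6 or 18 tests. From their own estimated counts the log2 ratio of 6PGL to RPE2 differed between HHQ and vehicle by −0.14 to 0.42 over the 6 comparisons, with SDs of 0.18 to 0.91 inside the groups and none called (exact two-sided permutation tests, raw p from 0.457 to 0.857, adjusted p from 0.823 to 0.857 over 18 ratio tests). From pair sums the SDs were 0.02 to 0.15. With 100 ng/ml at 72 h the pair ratio was then 0.35 higher than in vehicle, with no overlap between the libraries, so the pair of RPE2 stood lower relative to that of 6PGL (exact permutation p = 0.0286, the smallest possible; 0.171 adjusted over 6 tests). In the other 5 comparisons the raw exact p was 0.114 to 0.743. Between vehicle at 24 h and the parent the pair ratio differed by −1.14, from −2.94 ± 0.09 to −4.08 ± 0.14 (exact permutation p = 0.0286; 0.114 adjusted over 4 tests chosen after the data were seen).

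**Figure D4:**
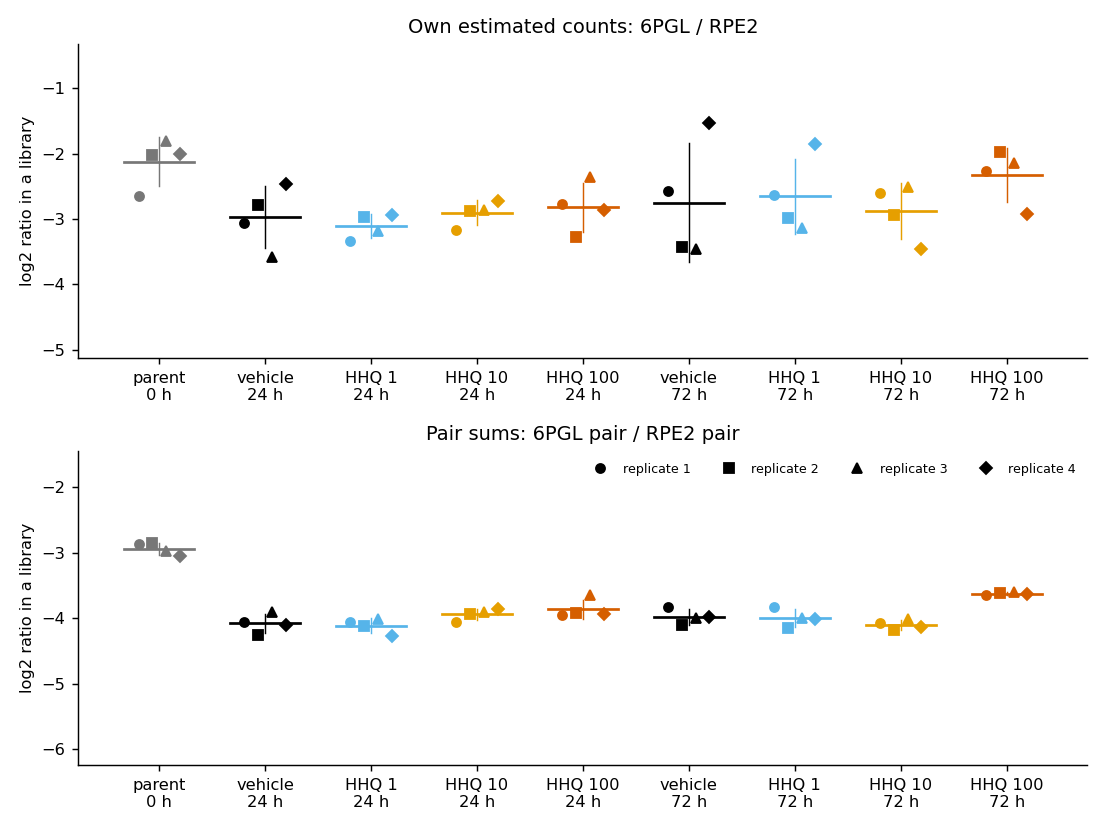
The log2 ratio of 6PGL to RPE2 is plotted for each library by group (doses in ng/ml, lines at the mean and ± SD of 4 libraries), from the genes' own estimated counts and from pair sums. The pair sums lie close together inside each group (SD 0.02 to 0.15 in the vehicle and HHQ groups), with the parent cultures near −2.94 and vehicle at 24 h near −4.08.

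A search by a fixed list of symbols found 3 genes for other enzymes of the pathway. They were G6PDH1 and G6PDH2, for the first oxidative step, and RPE4, a further epimerase gene. The symbol TK, which 1 named gene carries, was not on the list, and what that gene encodes was not examined. All 3 passed the filter. G6PDH1 moved against 6PGL. With 100 ng/ml it was at 19.7, 19.8, 22.9 and 18.3 CPM at 24 h, against 13.4, 14.0, 15.5 and 13.1 CPM in vehicle, 1.44-fold higher (log2 fold change 0.53 ± 0.13, edgeR adjusted p = 0.00159). At 72 h it was 1.65-fold higher than in vehicle (0.73 ± 0.13, edgeR adjusted p = 3.77e-05). The groups did not overlap at either time. The ratio of the estimated counts of 6PGL to those of G6PDH1, which needs no scaling between libraries and was computed after the values were seen, was 3.36 ± 0.313 in vehicle and 0.911 ± 0.19 with 100 ng/ml at 24 h. At 72 h it was 2.79 ± 0.349 and 0.682 ± 0.0606, again with no overlap.

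G6PDH2 was highest with 10 ng/ml, at 3.94 ± 0.643 CPM after 24 h and 4.48 ± 0.778 CPM after 72 h. Against vehicle it was not called at this dose (log2 fold change 0.91, edgeR adjusted p = 0.054, and 1.15, edgeR adjusted p = 0.0738). It was called with the replicate block, if replicate numbers are taken to pair these libraries (edgeR adjusted p = 0.0128 and 0.0261). It was 3.04-fold lower with 100 than with 10 ng/ml at 24 h (edgeR adjusted p = 0.000515) and 2.95-fold lower at 72 h (edgeR adjusted p = 0.000277). RPE4 was not called in any of the 6 comparisons with vehicle, at −0.46 and −0.60 with 100 ng/ml (edgeR adjusted p = 0.184 and 0.0772). Its counts also became whole with a partner, EMIHUDRAFT_441963, in 36 of 36 libraries, and it held 1.70% to 6.16% of that pair. The pair sum fell with 100 ng/ml, by 0.90 at 24 h and 1.24 at 72 h on the log2 scale (edgeR adjusted p = 0.000352 and 4.2e-06).

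Counted together, 2 of the 6 pathway genes were lower and 1 higher with 100 ng/ml at 24 h, beside 19.5% of all genes lower and 21.6% higher. The median over the 6 on the log2 scale was −1.02, against 0.07 over all genes. At 72 h 2 were lower and 2 higher, beside 23.6% and 22.6% of all genes, with a median of −0.50 against 0.04. Both medians include the members, which were chosen with earlier results of these data known, among them 6PGL2 with its few counts. With 6 genes these counts and medians do not set the list apart from the background. With 10 ng/ml 1 was lower at 24 h and none was called at 72 h. A list of symbols of some other enzymes of sugar phosphates (such as phosphoribulokinase, fructose-bisphosphatase and hexokinase) matched GLK1 alone, which had 0 counts in all 36 libraries. Aldolase and phosphofructokinase were not on that list.

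The falls of 6PGL and RPE2 were falls relative to the typical gene. With scaling by library totals, all genes together had a median log2 fold change with 100 ng/ml of 0.87 at 24 h and 1.17 at 72 h, against 0.07 and 0.04 with TMM. On that scale 6PGL at 72 h was at 22.6 ± 8.85 against 24.5 ± 3.60 CPM of the library total, a log2 fold change of −0.11 (edgeR adjusted p = 0.664), and −0.52 at 24 h (edgeR adjusted p = 0.049). RPE2 was at −0.75 and −0.56 and not called (edgeR adjusted p = 0.0807 and 0.177). Relative to the median gene the values were −1.39 and −1.28 for 6PGL and −1.62 and −1.73 for RPE2. A change of scaling moves all genes of a comparison by nearly the same amount, so these distances could hardly differ from those with TMM. With library totals 6PGL2 and G6PDH1 were called higher at 72 h (edgeR adjusted p = 0.0016 and 1.48e-06), as were 54.7% of all genes. With the median gene at 1.17 on that scale, a gene higher with TMM moves further up, so these calls are no separate support.

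**Figure D5:**
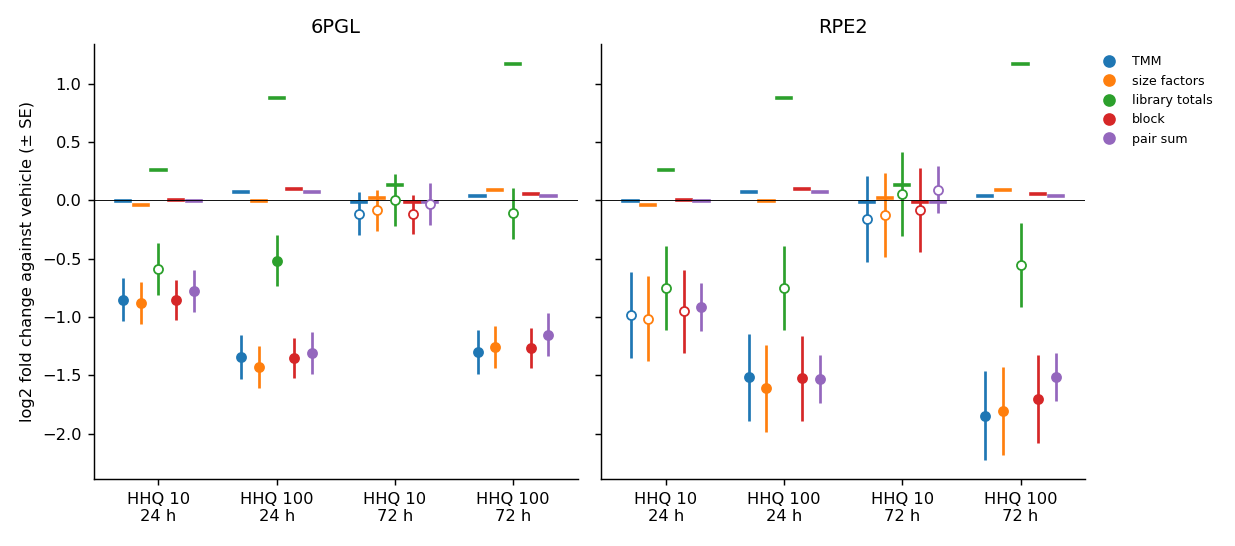
Log2 fold changes of 6PGL and RPE2 against vehicle, ± SE, are plotted by dose (ng/ml) and time under TMM, DESeq2 size factors, library totals, the replicate block and pair sums, filled where the adjusted p was under 0.05, with a dash at the median of all genes. With library totals both the genes and the median shift up with 100 ng/ml, the median to 0.87 at 24 h and 1.17 at 72 h.

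The profiles of the members over the 9 group means were compared with those of the genes that have a symbol and a mean of at least 1 CPM (621 for 6PGL and RPE2, 622 for 6PGL2), as a description across means that share libraries. The genes most like 6PGL were all of the Lhcf family, which names light-harvesting antenna proteins and holds 74 of these named genes (11.9%): Lhcf5 (Pearson r = 0.986), Lhcf4_1 (0.983), Lhcf16_1 (0.982), Lhcf2 (0.981) and Lhcf61 (0.978). RPE2 was in place 41 of its list (0.939). The genes most like RPE2 were GLN4, a glutamine synthetase gene (0.978), Lhcf26_1 (0.971), ATPVG2, a V-type ATPase subunit gene (0.968), Lhcf7 (0.967) and Lhcf55 (0.964), with 6PGL in place 14. For 6PGL2 they were the fatty acid desaturase genes FADS1 (0.854) and FADS2 (0.841), then ARG1 (0.793), VPS39 (0.780) and TK (0.746). 6PGL2 itself had a mean of at most 0.799 CPM in any group, so its values rest on few counts.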

How the data were processed

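Polyadenylated RNA of 36 cultures was sequenced from stranded libraries, per the labels' protocols. Trimmomatic 0.38 and Salmon 0.12.0 were used, per the submitters' processing notes. Their settings and the reference transcripts were not given in the sources used here, and strand handling in counting is likewise not stated. The authors deposited estimated counts per gene, not normalized, for 37212 genes, and 45.8% of the values were not whole. Values were rounded to whole numbers for the tests, and pairs of genes were added before rounding. Symbols came from a RefSeq gene table that matched 37202 identifiers. Over the 54 pairs of replicates, chi-square per gene was 5.10 to 191, so none was treated as a repeat.

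filterByExpr kept 26494 genes. edgeR 4.0.16 in R 4.3.3 fitted 1 mean per group over all 36 libraries with TMM scaling (27 residual degrees of freedom, median biological coefficient of variation 0.287), with two-sided quasi-likelihood F tests and Benjamini-Hochberg adjustment within each comparison. SEs were obtained as |log2 fold change| over the root of the F statistic, and 95% intervals use them. Ratios were tested on log2 values with a pseudocount of 0.5 by exact two-sided permutation. Group totals of 3 counts or fewer were treated as at the floor, and no fold was given against a group at 0.

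Alternatives were DESeq2 1.42.0, its size factors, library totals, other filters, fits of the compared groups alone, a replicate block, sets of replicates, each library left out and a pseudocount of 5, and, added after the data were seen, pair sums. Labels share replicate numbers across groups without saying what they mark. Deviations of same-numbered libraries correlated above 0.1 in every pair for 10 ng/ml against vehicle at 24 h (0.174 to 0.500), for 1 and 10 ng/ml against vehicle at 72 h (0.284 to 0.445 and 0.201 to 0.438) and for 100 against 10 ng/ml (0.120 to 0.422 at 24 h and 0.134 to 0.450 at 72 h), and replicate numbers were taken to pair libraries in these comparisons only.

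The text names the members, the genes matched by a fixed list of pathway symbols or by a short list of other sugar phosphate enzymes, and the 5 genes most alike to each member by Pearson r of mean log2 CPM (prior count 2) over the 9 groups. The members and lists were chosen with earlier results of these data known. No sequences or coordinates were used here.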

Additional observations from a re-analysis of the deposited data

Results flagged for a closer look

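Single libraries that lay far from the other 3 of their group were found in 9 of 86 gene and group combinations tested. Chance gives about 1 in 20, but that rate does not hold for 3 of the 9, where 6PGL2 or its pair sum was above 0 in 1 library alone. In 6PGL they were replicate 4 with 100 ng/ml HHQ at 24 h, at 11.8 CPM against 20.2 to 21.2 CPM, and replicate 2 with 1 ng/ml at 72 h, at 47.6 CPM against 31.2 to 31.9 CPM. In G6PDH2 they were replicate 4 of the 24 h vehicle, at 4.42 CPM against 1.23 to 1.53 CPM, and replicate 2 with 10 ng/ml at 72 h, at 5.64 CPM against 4.00 to 4.19 CPM. RPE4 was low in replicate 4 of the 72 h vehicle, at 3.83 CPM against 4.89 to 5.09 CPM, and its pair sum was high in replicate 2, at 207 CPM against 132 to 138 CPM. 6PGL2 was above 0 in 1 library alone with 1 ng/ml at 24 h (0.375 CPM) and with 10 ng/ml at 72 h (0.0999 CPM, alone and as a pair sum).

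The response of 6PGL2 to 100 ng/ml HHQ differed between 24 h and 72 h (edgeR interaction, adjusted p = 0.0254), on a few counts per library. Its passing of the filter on low counts depended on the 72 h libraries with that dose.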

How the results depend on the processing

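Against vehicle, the calls of 6PGL with 10 and 100 ng/ml HHQ and those of RPE2 with 100 ng/ml kept their direction under every alternative run, and kept the call except with library totals alone or within sets of replicates. With library totals alone the log2 fold change of 6PGL was −0.59 with 10 ng/ml at 24 h (edgeR adjusted p = 0.102) and −0.11 with 100 ng/ml at 72 h, and that of RPE2 −0.75 and −0.56 with 100 ng/ml at 24 and 72 h, none of them called. Between 100 and 10 ng/ml at 72 h the calls of 6PGL (−0.11) and RPE2 (−0.61) were lost and 6PGL in vehicle from 24 to 72 h was called (−0.88). Uncalled values changed sign: for 1 ng/ml at 24 h −0.20 in 6PGL and −0.14 in RPE2, for 10 ng/ml at 72 h 0.0011 and 0.053, for 100 against 10 ng/ml at 24 h 0.070 in 6PGL, for the 1 ng/ml interaction 0.28 and 0.10, and for the 100 ng/ml interaction 0.19 in RPE2. The shift of the median gene, given with the results, accompanied these changes.

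DESeq2 added calls for RPE2 with 10 ng/ml at 24 h (−1.01), 6PGL in vehicle from 24 to 72 h (−0.53), 6PGL between the higher doses at 24 h (−0.55, as with its size factors in edgeR, −0.55) and the 10 ng/ml interaction of 6PGL (0.80), and lost 6PGL2 between these doses at 72 h (adjusted p = 0.0507). Fits of the compared groups alone called RPE2 with 10 ng/ml at 24 h (−0.97) and 6PGL between the higher doses at 24 h (−0.57). With the replicate block 6PGL was also called from parent to vehicle (0.48), from 24 to 72 h in vehicle (−0.48), where the numbers were not taken to pair the libraries, and between the higher doses at 24 h (−0.50), and no other call of a member changed.

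Pair sums added calls for RPE2 with 10 ng/ml at 24 h (−0.91), from 24 to 72 h in vehicle (−0.67) and between the higher doses at 24 h (−0.62), for 6PGL from parent to vehicle (0.61), from 24 to 72 h (−0.58) and between the higher doses at 24 h (−0.53), and for 6PGL2 there (adjusted p = 0.0387), with a partner that rests on 2 libraries. They turned uncalled RPE2 values with 1 and 10 ng/ml at 72 h (0.11 and 0.090), the 100 ng/ml interaction of RPE2 (0.019) and the ratio of 6PGL to RPE2 with 1 ng/ml at 72 h (−0.015).

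Within replicates 1 to 3 RPE2 was called with 10 ng/ml at 24 h (−1.09, −0.86 as a pair sum). Within replicates 1 and 2 6PGL2 with 100 ng/ml was not called (adjusted p = 0.205, 0.180 as a pair sum), nor within replicates 3 and 4 were RPE2 (−0.99) and the pair sum of 6PGL (−0.72). Uncalled values that changed sign were, within replicates 3 and 4, RPE2 with 1 ng/ml (0.0083, 0.17 as a pair sum) and 10 ng/ml (0.12), and, as pair sums within replicates 1 and 2, RPE2 with 1 and 10 ng/ml (0.067 and 0.20) and 6PGL with 10 ng/ml (0.054).

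When 1 library was left out at a time, RPE2 from parent to vehicle ran from 1.00 to 1.56, 6PGL between the higher doses at 24 h from −0.58 to −0.38 (called without replicate 1 at 10 ng/ml), and the adjusted p of 6PGL2 from 0.0171 to 0.0707 between these doses at 72 h, from 0.0173 to 0.0518 for its interaction and from 0.0378 to 0.162 from parent to vehicle (called without replicate 4 of the vehicle). Uncalled values crossed 0 for 6PGL with 1 ng/ml at 72 h (−0.11 to 0.17) and its 100 ng/ml interaction (−0.057 to 0.20), for RPE2 at 72 h with 1 ng/ml (−0.43 to 0.26) and 10 ng/ml (−0.44 to 0.22) and its interaction (−0.61 to 0.053), and for 6PGL2 with 10 ng/ml at 24 h (adjusted p from 0.569 to 0.948). The ratio of 6PGL to RPE2 crossed 0 with 1 ng/ml at 24 h (−0.34 to 0.033) and 72 h (−0.17 to 0.50), with 10 ng/ml at 24 h (−0.14 to 0.23) and 72 h (−0.36 to 0.28) and with 100 ng/ml at 24 h (−0.051 to 0.32).

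The number of genes called moved by over 1.5 times in some settings. DESeq2 called 12 with 1 ng/ml at 24 h and 8 at 72 h (edgeR 0), 578 with 10 ng/ml at 72 h (251), 2926 from 24 to 72 h in vehicle (1884), and 5, 690 and 2504 for the interactions of 1, 10 and 100 ng/ml (0, 381 and 1597). Library totals gave 135 with 10 ng/ml at 72 h and 240 for its interaction. The replicate block gave 5268 with 10 ng/ml at 24 h (3114), 699 at 72 h, 5191 in vehicle over time, 9070 between the higher doses at 24 h (4947), and 769 and 3173 for the interactions of 10 and 100 ng/ml. Fits of the compared groups alone gave 57, 460 and 224 with 10 ng/ml at 72 h, in vehicle over time and for the 10 ng/ml interaction. Within replicates 1 and 2 at 72 h 2 genes were called with 1 ng/ml and 44 with 10 ng/ml (46 with pair sums), and within replicates 3 and 4 there were 4 and 0. With 1 library left out the counts ran from 0 to 2 and 0 to 1 with 1 ng/ml at 24 and 72 h, from 161 to 210 with 10 ng/ml at 72 h, from 3156 to 4955 between the higher doses at 24 h and from 1060 to 3061 in vehicle over time.

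6PGL2 did not pass a filter of 1 CPM in 4 libraries or the filters of most fits of 2 groups, and its counts, at most 59 in a library, limit what can be said of it.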
